A study of Mus musculus with 7 samples.

Results

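The regions described here are stretches of mouse chromatin at the ends of protein-coding genes that carried H3K4me2 in every library of the mark and no peak of H3K4me3. Their members were chosen by peak calls. Touching or overlapping H3K4me2 intervals of 4 libraries were merged on the 19 autosomes into 39395 regions. Of these, 11891 held a peak in all 4 libraries and are called constant. A constant region was kept when it lay within 1 kb of either end of a protein-coding gene and shared no base with a peak of the H3K4me3 list. This left 4336 members, which were 36.5% of the constant regions and 11.0% of all regions. Another 3668 constant gene-end regions overlapped an H3K4me3 peak and serve for comparison. The members were thus selected on the presence of H3K4me2 and the absence of an H3K4me3 call, and neither property is a result.

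The cells were common monocyte progenitors (cMoPs) of mouse bone marrow, and the assay was CUTAC, an antibody-guided tagmentation that under no-salt conditions cuts accessible DNA close to the marked nucleosome. H3K4me2 was profiled in 2 libraries labelled WT and 2 labelled DE, and H3K4me3 in 1 WT library. The mice carried variants of a Zeb2 enhancer named for its position of -165 kb, the WT variant or that called DE, and what DE alters in the sequence is not spelled out in the labels. All 4 H3K4me2 libraries belong to batch 2 and the H3K4me3 library to batch 1, so the marks differ in batch too, and the effects of mark and batch cannot be told apart. No label states that libraries of a genotype come from separate animals, and their spread may be technical. The track line of the DE replicate 1 list carries the name of DE replicate 2, and the sample recorded for the file was used. The WT lists of H3K4me2 hold 32354 and 28152 peaks, the DE lists 21968 and 17079, and the H3K4me3 list 6425.

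Methylation of lysine 4 of histone H3 marks promoters and enhancers. The trimethylated form is highest at the starts of genes in use, where enzymes of the SETD1 and KMT2 families bound to CpG-rich DNA deposit it, and the dimethylated form flanks those starts and also covers enhancers and promoters that are poised or weakly used. Monocyte progenitors arise from stem and multipotent cells whose regulators include Meis1, Mecom, Kit and Flt3, and their identity depends on factors such as PU.1 and IRF8. ZEB2 is a zinc finger repressor that binds E-box motifs, the same class of site that E proteins bind and that ID proteins keep them from.

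Promoter sequences of leading members are given first, because base composition is one of the properties the members share. Sequences are from RefSeq, GRCm38.p6 (the mm10 build), read 5' to 3' on the gene's strand. Each shows the 150 bases that end just before the annotated start, and capitals mark CpG dinucleotides. The strongest member lay at Gm13272, in a tandem cluster of interferon zeta genes (chr4:88779700-88779849, plus strand), and held 11 CpG. The same 150 bases precede Gm13285, the next strongest member. Gm13278, another gene of the cluster (chr4:88790745-88790894, plus), held 2.
Gm13272: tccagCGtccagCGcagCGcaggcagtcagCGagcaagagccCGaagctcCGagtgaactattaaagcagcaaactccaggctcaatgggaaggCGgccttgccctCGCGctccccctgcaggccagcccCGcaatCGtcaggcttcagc
Gm13278: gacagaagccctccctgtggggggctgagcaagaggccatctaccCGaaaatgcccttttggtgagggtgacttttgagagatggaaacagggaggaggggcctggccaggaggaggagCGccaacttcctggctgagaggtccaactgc
Genes with known roles in blood cells follow, chosen from the gene lists in their written order. Kit, the receptor of stem cell factor (chr5:75574837-75574986, plus), held 14 CpG. Zeb2 (chr2:45117443-45117592, minus) held 7, Gfi1, a repressor of the granulocyte lineage (chr5:107725806-107725955, minus), held 8, Id2, an inhibitor of E proteins (chr12:25096093-25096242, minus), held 13, and Tfrc, the transferrin receptor (chr16:32608746-32608895, plus), held 18.
Kit: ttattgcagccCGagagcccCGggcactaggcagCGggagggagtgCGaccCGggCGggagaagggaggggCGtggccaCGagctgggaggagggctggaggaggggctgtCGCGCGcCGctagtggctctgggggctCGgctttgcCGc
Zeb2: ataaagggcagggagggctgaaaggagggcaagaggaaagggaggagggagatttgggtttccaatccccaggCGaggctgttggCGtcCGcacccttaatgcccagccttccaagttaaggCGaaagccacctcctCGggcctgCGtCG
Gfi1: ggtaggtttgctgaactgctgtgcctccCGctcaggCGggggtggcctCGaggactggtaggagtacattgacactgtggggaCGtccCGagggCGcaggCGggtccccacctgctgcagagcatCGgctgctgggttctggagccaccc
Id2: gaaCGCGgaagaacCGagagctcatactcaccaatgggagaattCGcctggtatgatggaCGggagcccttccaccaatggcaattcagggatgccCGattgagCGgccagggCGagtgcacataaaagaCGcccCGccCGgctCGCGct
Tfrc: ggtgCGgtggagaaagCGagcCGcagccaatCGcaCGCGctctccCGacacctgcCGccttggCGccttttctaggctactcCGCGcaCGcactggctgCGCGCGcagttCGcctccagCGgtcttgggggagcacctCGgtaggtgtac
For contrast, promoters in the strongest constant regions that did overlap H3K4me3 and whose 150 bases lie outside any protein-coding gene were those of Phf13 (chr4:151996180-151996329, minus), with 17 CpG, and Shf (chr2:122369148-122369297, minus), with 19.
Phf13: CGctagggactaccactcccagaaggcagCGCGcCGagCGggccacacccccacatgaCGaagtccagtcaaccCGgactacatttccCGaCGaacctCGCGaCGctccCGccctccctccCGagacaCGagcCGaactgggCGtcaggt
Shf: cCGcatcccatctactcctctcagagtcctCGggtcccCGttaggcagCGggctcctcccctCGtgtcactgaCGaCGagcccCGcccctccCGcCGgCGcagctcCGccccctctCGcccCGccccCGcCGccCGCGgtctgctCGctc
Among the member stretches shown, Gm13278 with 2 CpG was thus the poorest, and the others held 7 to 18.

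Strength was described by place. In each H3K4me2 library the 11891 constant regions were ranked by their strongest -log10 p and the rank written as a percent, so that 0 is the strongest and 100 the weakest. The -log10 p and the fold over local background are the authors' values per peak, and place compares them only within a library. Values are given in the order WT 1, WT 2, DE 1, DE 2 wherever 4 follow each other. The median place of the members was 56.4, 57.4, 57.4 and 56.7. For the regions with H3K4me3 the medians were 35.4, 32.8, 34.7 and 35.2. The members were therefore weaker in 4 of 4 libraries, by 22.4 ± 1.60 points of place (mean ± SD, n = 4 libraries). An exact two-sided sign-flip test over the libraries gave p = 0.13, the smallest that 4 libraries allow. The difference was about the same in WT and DE, and far larger than the spread between libraries. Single members moved more: their place spanned a median of 32.5 points across the 4 libraries (quartiles 21.4 and 44.7), against 28 points for regions with H3K4me3.

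**Figure D1:**
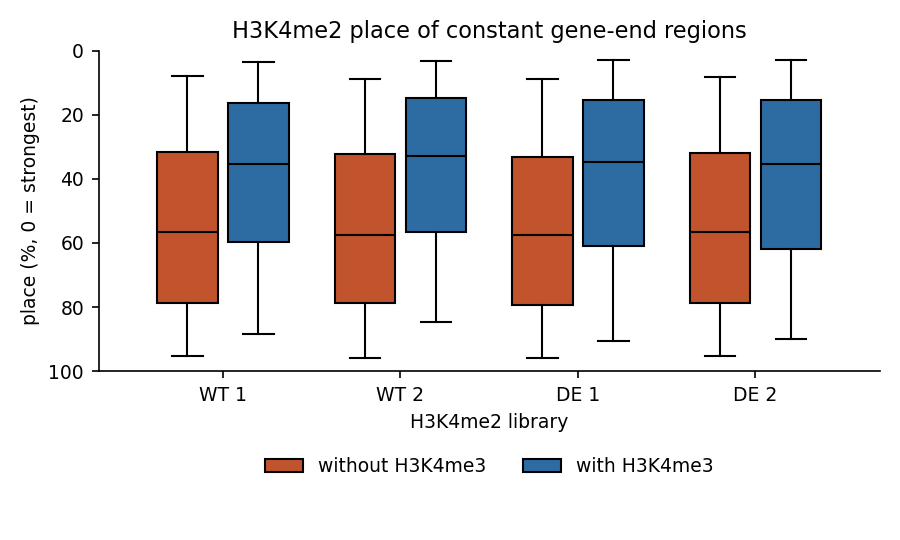
Place of constant gene-end regions (vertical axis, percent, 0 strongest) in each H3K4me2 library (horizontal axis), for the 4336 members (orange) and the 3668 regions with an H3K4me3 peak (blue). Boxes show quartiles and median and whiskers the 5th and 95th percentiles; the median of the members is weaker in each library, while the boxes overlap.

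Without an H3K4me3 call were 54.2% of the constant gene-end regions (95% Wilson interval 53.1 to 55.3%, for counting error only). When the 8004 regions were put in 10 classes of mean place, that share rose from 28.1% (25.1 to 31.3%) in the strongest class to 79.4% (76.4 to 82.0%) in the weakest, and it was higher in each class than in the one before. Strong H3K4me2 was thus no guarantee of an H3K4me3 call: 225 of the 801 regions in the strongest class had none. The share depended on the threshold of the H3K4me3 list. With H3K4me3 peaks limited to a -log10 q of at least 5, 72.7% lacked a call.

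**Figure D2:**
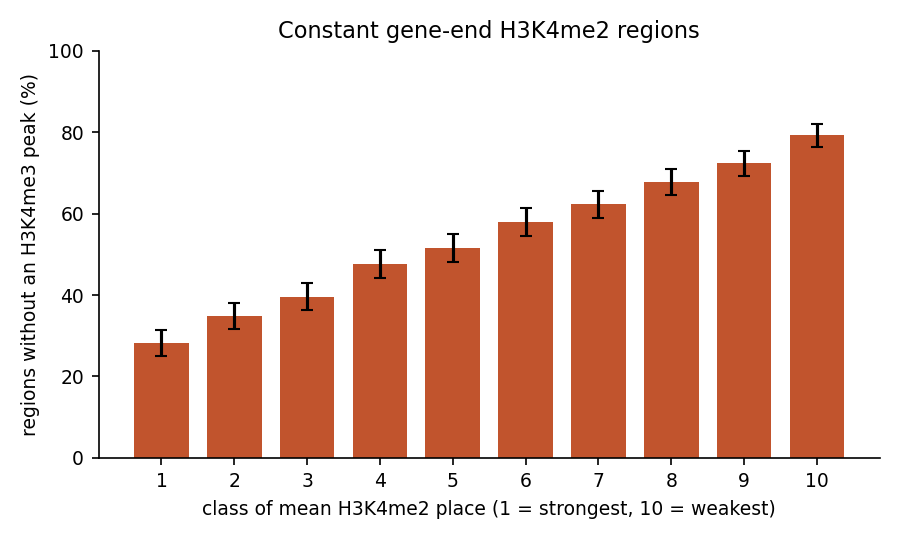
Share of constant gene-end regions without an H3K4me3 peak (vertical axis, percent) in 10 classes of mean H3K4me2 place (horizontal axis, 1 strongest), with 95% Wilson intervals. The share climbs from 28.1% in class 1 to 79.4% in class 10.

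The members closest to the 1 kb limit lay 1000 bp from an end of Tmem44, 999 bp from Sp7 and 999 bp from Itpripl1. Regions just outside lay 1004 bp from Lpgat1, 1005 bp from Sgf29 and 1006 bp from Wnk1. On the side of H3K4me3, 221 members had a peak of that mark within 500 bp and 374 (8.63%) within 1 kb, the nearest at Rasgrp2, Leng8 and Slc49a4. The median distance to the nearest H3K4me3 peak was 75.2 kb, so most members were not the flank of a called H3K4me3 peak. The weakest calls that kept a region out, at Epm2aip1, Pcyox1l and Fem1a, had an H3K4me3 fold of 2.52 to 2.55 in the authors' list.

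Members were about as wide as constant regions in general. Their median width was 437 bp (10th to 90th percentile 260 to 810 bp), against 433 bp for all constant regions, 460.5 bp for gene-end regions with H3K4me3 and 397 bp for regions away from gene ends without it. The widest was 3037 bp at Adgrl2, which encodes an adhesion G protein-coupled receptor. Next came 2175 bp at Lzts2, 2148 bp at Ptpru, a receptor tyrosine phosphatase, 1963 bp at Coro2a and 1910 bp at Itpkb, an inositol trisphosphate kinase. The mean places of these widest members ran from 7.46 at Adgrl2 to 46.4 at Lzts2. Each was stronger than the median mean place of all members, 58.3. Whether width goes with strength over all members was not tested.

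The RefSeq gene table gives both ends of a gene and no strand, so the rule admits regions at the far end. Starts were taken from RefSeq promoter entries, which exist for 16457 of the 20665 autosomal protein-coding genes. Among the 3425 members whose nearby genes all have an entry, 3218 (94.0%) lay within 1 kb of a start and 207 (6.04%, 5.29 to 6.89%) lay at far ends alone. For regions with H3K4me3 the share at far ends alone was 2.22% (1.75 to 2.82%, n = 2923). Members were thus gene starts in the main, and far ends were more frequent among them.

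A start lay inside the region in 2511 members and in 2485 regions with H3K4me3. Starts of different genes on opposite strands, the arrangement of a divergent promoter, lay in 127 of those members (5.06%, 4.27 to 5.99%) and in 382 of the regions with H3K4me3 (15.4%, 14.0 to 16.8%). The difference was present at both levels of strength. Among regions stronger than the median mean place of all constant gene-end regions the shares were 5.33% and 16.3%. Among the weaker ones they were 4.86% and 13.4%. Divergent starts were thus a minority in both sets, and the smaller share was in members.

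The 2861 promoter windows whose start lies in a member (250 bases before to 50 after the start, 300 in all) had a median observed-to-expected CpG ratio of 0.799 (quartiles 0.660 and 0.924). Windows in regions with H3K4me3 had 0.849 (0.724 and 0.967, n = 3115), and those whose start lies in no H3K4me2 region 0.277 (0.134 and 0.556, n = 11081). Median GC content was 63.7%, 63.0% and 51.0% in the same order. Members were thus CpG-rich, only slightly below the regions with H3K4me3. Among the regions stronger than the median place the medians were 0.795 and 0.846, and among the weaker ones 0.802 and 0.855, so the small gap did not follow strength. A ratio below 0.4 was found in 145 member promoters (5.07%) and in 99 with H3K4me3 (3.18%).

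**Figure D3:**
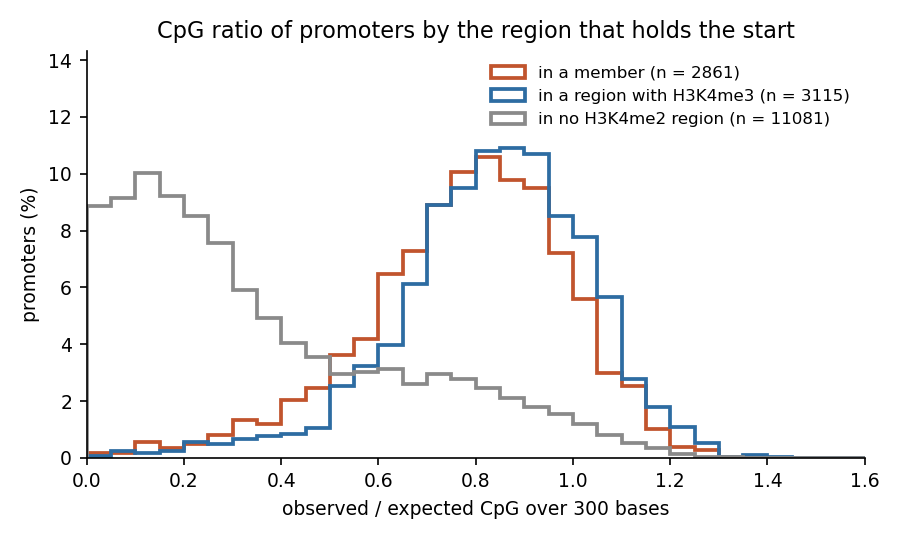
Observed-to-expected CpG ratio over 300 bases (horizontal axis) of promoters whose start lies in a member, in a constant gene-end region with H3K4me3, or in no H3K4me2 region (vertical axis, percent of promoters of that set). The first pair of curves overlaps around medians of 0.799 and 0.849, while promoters outside H3K4me2 regions peak near the left edge.

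Short motifs were counted in the same 300-base windows on both strands, as letters only. CCGGAAG, a core of ETS factor sites, stood in 18.2% of member promoters (16.8 to 19.6%), in 27.5% of those with H3K4me3 (25.9 to 29.1%) and in 11.9% of all 20085 promoters. AAGATGG, the core bound by YY1, stood in 5.07% (4.32 to 5.93%), 10.5% (9.44 to 11.6%) and 6.29% in the same order. The order of the first 2 sets held among the regions stronger than the median place, at 16.3% and 26.0% for CCGGAAG and 3.98% and 9.59% for AAGATGG. Part of the NRF1 site, GCGCATG, stood in 6.85% of member promoters, 9.95% of those with H3K4me3 and 4.84% of all. Other motifs were about as frequent in both sets: GGGCGG, the GC box, stood in 75.1% and 72.7% (47.0% of all), CCAAT in 39.4% and 39.9% (38.1%) and TATAAA in 4.75% and 4.98% (12.7%). CACCTG, an E-box that ZEB factors bind, went the other way, with 17.2% in members (15.8 to 18.6%), 13.8% with H3K4me3 (12.6 to 15.0%) and 20.0% of all promoters. Among the regions stronger than the median place the shares were 16.0% (14.0 to 18.2%) and 14.2% (12.8 to 15.8%), and these intervals overlap. The remaining motifs were GAGGAAG for PU.1 (12.2%, 12.3% and 13.2%), TGTGGTT for RUNX (3.36%, 3.15% and 4.77%), TGANTCA for AP-1 (3.57%, 3.34% and 7.06%), AGATAAG for GATA (1.40%, 1.12% and 2.58%) and TTGCNNAA for C/EBP (7.48%, 6.48% and 10.3%). A match is a description of the letters and not a bound site, and windows of a gene with several starts overlap.

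The strongest members were led by the interferon zeta cluster. By mean place the first 10 were at Gm13272, Gm13285, Nr4a3, Gm13278, Fzd5, Shb, Pkd2l2, Ddit4, Gm13290 and Gm13275, and the Gm genes among them belong to the cluster. Nr4a3, an orphan nuclear receptor that acts as an immediate early gene, had places of 0.206, 0.160, 0.164 and 0.601. The fold over local background in this member was 39.3, 37.9, 27.6 and 17.8. The region spans 1134 bp (chr4:48044499-48045632) and its nearest H3K4me3 peak was 233948 bp away. Fzd5, a receptor of WNT ligands, had places of 0.833, 0.475, 0.328 and 0.353, and Shb, an adaptor of tyrosine kinase signalling, had 0.517, 1.11, 0.139 and 0.256. Ddit4, a stress-induced inhibitor of mTORC1, had 0.589, 0.130, 0.921 and 0.568. All of these values lay within the strongest 2% of constant regions. At Fzd5 and Shb both DE libraries were stronger than both WT libraries, and at Nr4a3 and Ddit4 the genotypes overlapped.

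The interferon zeta genes form a tandem array on chromosome 4. Interferon zeta, or limitin, is a type I interferon of the mouse. Between Klhl9 and Ifna7 lie 15 protein-coding genes over 53.5 kb (chr4:88754868-88808380), and 14 of them had a member at an end. The array held 25 constant regions, of which 23 were members, and no H3K4me3 peak. Of the 15 members within the strongest 1% by mean place, 8 were in the array, as were 12 of the 46 within the strongest 3%. Strong and weaker regions lay side by side along it. The 12 members within the strongest 3% had a median width of 370.5 bp and a median spacing of 2.94 kb (2.88 to 13.2 kb), and the other 11 members had mean places of 8.43 to 50.4.

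Some of the copies share sequence. Of the 105 pairs of promoter windows in the array, 7 were identical over 300 bases, another 12 differed at 1 to 3 bases and the other 86 differed at 104 to 235. The windows were compared base by base from the annotated start, so a stretch that 2 windows hold at different distances from their starts counts as differing. A run of 62 bases with 10 CpG is shared by the windows of Gm13272, Gm13285, Gm13287, Gm13283, Gm13289, Gm13290 and Gm13279. It is shown because it lies within the strong region at each of these genes. It ends 189 bases before the start of Gm13272 (chr4:88779600-88779661) and 29 bases before that of Gm13290 (chr4:88773744-88773805).
shared run: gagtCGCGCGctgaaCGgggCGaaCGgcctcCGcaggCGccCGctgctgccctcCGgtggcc
The labels and file headers do not say how the authors placed reads that match several copies, and sequence outside the windows was not compared. The values of copies that share such stretches may therefore not be independent.

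Across genotypes the array had lower values in DE, and none of its members passed the test. In the member at Gm13272 the fold was 60.1 and 55.9 in WT and 31.6 and 22.8 in DE, and at Gm13286, the first gene of the array with a member, it was 23.0 and 15.3 in WT and 6.42 and 3.89 in DE. Over the 23 members the median fold was 25.1 and 18.9 in WT and 9.93 and 8.21 in DE. The fold was lower in DE for constant regions in general too, with medians of 8.01 and 9.20 in WT and 6.57 and 5.63 in DE. Place ranks regions only within a library. It was weaker in both DE libraries than in both WT libraries for 20 of the 23 members and stronger for 0. Among all 11891 constant regions the percentages were 19.3% weaker and 21% stronger. In the array the fall also ran within each genotype. The median place was 0.177, 0.206, 0.650 and 1.96 in its 12 strong members. In the 11 weaker members it was 4.51, 12.4, 39.9 and 67.3. The peak lists shorten in the same order of libraries, so genotype and list length cannot be told apart here. The test was limma's on normal scores of place, with Benjamini-Hochberg adjustment over all constant regions. Whether the number of copies differs between the mice was not tested.

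**Figure D4:**
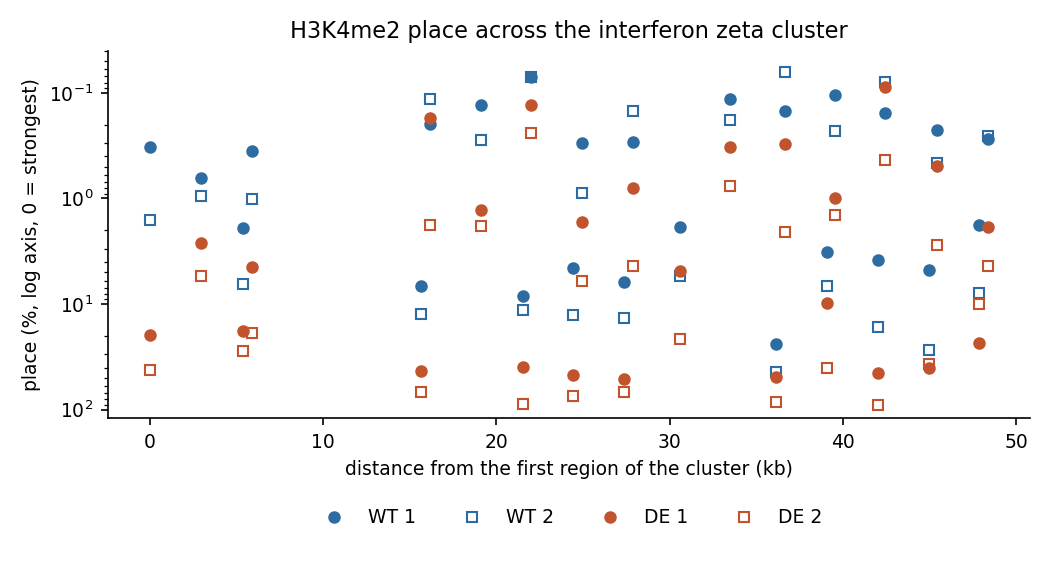
Place (vertical axis, percent, log axis, 0 strongest at the top) of the 25 constant regions of the interferon zeta array against distance from the first of them (horizontal axis, kb), in WT (blue) and DE (orange), with circles for replicate 1 and squares for replicate 2. Strong and weaker regions lie side by side, and the DE points lie below the WT points in 20 of the 23 members.

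Members at genes were set against fixed lists, with the shares of all autosomal protein-coding genes beside them. Of 20665 genes, 4341 had a member at an end (21%), 4104 had a constant region with H3K4me3 (19.9%) and 473 had both. Counts below are of genes with a member and of genes with an H3K4me3-bearing region, and no test was made of a list. H3K4me2 shows neither expression nor cell type by itself, so lists of other lineages do not give the makeup of the sorted cells. With a constant region of either kind at an end were 11 of 26 monocyte, 7 of 21 granulocyte, 16 of 26 stem and progenitor, 6 of 23 dendritic cell, 5 of 24 erythroid, megakaryocyte and mast cell and 2 of 30 lymphoid genes. Csf1r, Ly6c2, Irf8 and Klf4 were among the 11 monocyte genes, and 15 of the 26 had neither kind. Of all 20665 autosomal protein-coding genes, 12693 had neither kind.

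Genes of stem and progenitor cells were frequent among the members. A member lay at 13 of 26, and a region with H3K4me3 at 4 (Lyl1, Myb, Ikzf1 and Bcl11a). Meis1, a homeobox factor of stem cells, had a member with places of 0.408 and 0.492 in WT and 1.16 and 1.95 in DE (chr11:19018870-19019285). Its WT values were stronger than both DE values, though all lay within the strongest 2%. Mecom, which encodes the factor EVI1, had 2.41, 0.664, 0.475 and 0.231, with both DE libraries stronger than both WT libraries. Kit had a member 582 bp from the nearer end of the gene with places of 16.3, 7.54, 15.4 and 6.43 (chr5:75575569-75576045) and another over its start with a mean place of 13.6. Flt3, the receptor of FLT3 ligand, had 15.1, 16.2, 4.26 and 18.3. Hlf, a factor of dormant stem cells, had 18.1 and 10.9 in WT and 56.5 and 47.2 in DE, and these did not overlap.

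Genes of the monocyte line showed the opposite balance, with a member at 3 of 26 and a region with H3K4me3 at 8 (Csf1r, Ly6c2, Klf4, Irf8, Lyz2, Cebpb, F13a1 and Csf2rb). The 3 were Zeb2, Spi1 and Csf2ra. At Spi1, which encodes PU.1, the member had places of 30.4, 9.68, 16.5 and 20.8. At Csf2ra, a subunit of the GM-CSF receptor, it had 77.5, 72.2, 75.5 and 78.7. The member over the start of Zeb2 (chr2:45117052-45117587) was among the weakest, with places of 91.7 and 97.3 in WT and 96.0 and 82.6 in DE, which overlap. The H3K4me3 peak nearest to that member lay 3843 bp away. Of the granulocyte genes, 3 of 21 had a member (Gfi1, Cebpa and Csf3r) and 5 a region with H3K4me3, among them Mpo, Elane, Prtn3 and Ctsg, which encode granule proteins.

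Of the E proteins, ID inhibitors and ZEB factors, 9 of 16 had a member and 4 a region with H3K4me3. All of Id1, Id2 and Id3 had a member. Id2 was the strongest, with places of 14.3, 0.589, 0.223 and 0.122, where both DE libraries were stronger than both WT libraries and WT replicate 1 stood apart. Id1 had 87.0, 31.9, 39.0 and 42.0 and Id3 had 97.8, 86.7, 78.7 and 41.0. Zeb1 had 89.1 and 92.8 in WT and 47.6 and 51.4 in DE. Tcf4, an E protein of plasmacytoid dendritic cells, had 33.7, 14.5, 30.1 and 21.6. None of these shifts passed the limma test.

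The other lineage lists were those of dendritic cells, of lymphoid cells, and of erythroid, megakaryocyte and mast cells. Dendritic cell genes had a member at 5 of 23 (Id2, Tcf4, Nfil3, Bcl6 and Relb) and H3K4me3 at 1, Xcr1. Nfil3, a factor needed for the cDC1 line, had places of 14.4 and 9.53 in WT and 56.5 and 71.5 in DE. Lymphoid genes had a member at 2 of 30, Cd79b and Tox, and H3K4me3 at 0. Erythroid, megakaryocyte and mast cell genes had a member at 4 of 24 and H3K4me3 at 1. Among the 4, Zfpm1, the GATA cofactor FOG1, had 3.31, 4.26, 4.42 and 4.90, and Klf1 had 18.2, 27.7, 15.7 and 14.0.

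Receptor genes were shared about evenly by the 2 kinds of region. Cytokine and growth factor receptors had a member at 10 of 29 and H3K4me3 at 8. Ifnar1, a chain of the type I interferon receptor, had places of 57.0, 22.5, 14.6 and 17.6, and its partner Ifnar2 lay with H3K4me3. Genes of the interferon response had a member at 7 of 23 (Irf9, Ifih1, Usp18, Trim25, Socs1, Socs3 and Bst2). Ifih1, which encodes the RNA sensor MDA5, had 8.24, 16.5, 24.7 and 16.7. Usp18, a brake on interferon signalling, had 36.1 and 56.8 in WT and 96.7 and 92.8 in DE.

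The housekeeping, cytosolic ribosomal protein and proteasome lists stood at the other pole. Of 25 housekeeping genes, 0 had a member and 21 a region with H3K4me3, including Gapdh, B2m and Eef1a1. Without DE replicate 1 the count was 2, without DE replicate 2 it was 3, and with H3K4me3 peaks at a -log10 q of at least 5 it was 9. Genes named as cytosolic ribosomal proteins had a member at 6 of 94 and H3K4me3 at 58. Of the 6, Rps6ka5, Rps6kc1 and Rps19bp1 are kinases or a binding partner caught by their symbols. The 58 likewise include the kinases Rps6ka1, Rps6kb1 and Rps6kb2. Proteasome genes had a member at 4 of 49 and H3K4me3 at 31, among them Psme3ip1 and Psmc3ip, which are binding partners caught by their symbols. Cell cycle and replication genes had a member at 6 of 30 and H3K4me3 at 20. The 6 included the cyclin genes Ccnd1, Ccnd2 and Ccnd3, while Mcm2 to Mcm7 all lay with H3K4me3. Ccnd3 had places of 34.6 and 27.4 in WT and 7.27 and 11.9 in DE. Lysine methylation enzymes and partners, the writers and erasers of marks such as H3K4me2, had a member at 11 of 27 and H3K4me3 at 17. Kmt2a, Kdm2a, Jarid2, Rbbp5 and Men1 had both.

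Histone genes departed from that pattern. Of 80, 54 had a member (67.5%) and 7 a region with H3K4me3, of which H4c8 and H2ac10 also had a member. On chromosome 13, 41 of 54 histone genes had one, and on chromosome 3, 9 of 11. Most of these genes encode replication-dependent histones, lie in dense clusters and lack introns, and a region often serves several of them. The 54 genes shared 51 regions, and 31 of these held an annotated start. The strongest, beside H2bc14 (chr13:21721434-21721981), had places of 0.534 and 1.94 in WT and 11.6 and 11.0 in DE. The region between H2ac4 and H3c2 had 0.542, 6.70, 12.9 and 16.7. The median place of the 51 was 34.1 and 53.8 in WT and 55.0 and 58.3 in DE. In 17 of them both DE libraries were weaker than both WT libraries and in 3 both were stronger, against 19.3% and 21% of all constant regions. Copies of histone genes are similar in sequence, and the placing of reads among them is uncertain.

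The remaining families differed among themselves. Genes named Zfp had a member at 104 of 388 (26.8%) and H3K4me3 at 88. Solute carriers had a member at 90 of 362 (24.9%) and H3K4me3 at 56, Tmem genes at 72 of 231 (31.2%) and 50, and Rab genes at 17 of 65 and 23. Mitochondrial ribosomal proteins had a member at 21 of 78 (26.9%) and H3K4me3 at 43 (55.1%). Genes named for complex I, assembly factors included, had a member at 13 of 47 (27.7%) and H3K4me3 at 24 (51.1%). Families with roles mostly in other tissues gave few: Hox genes 3 of 39 (Hoxa3, Hoxa7 and Hoxb4), keratins 1 of 53 (Krt10) and olfactory receptors 0 of 1104. Hoxa7, which is used in blood progenitors, was the strongest Hox member, with places of 11.3, 23.6, 25.8 and 11.3. Of the family members, Zfp827 had 4.34, 3.86, 2.06 and 1.22, Slc37a1 2.52, 3.29, 7.27 and 9.04, and Rab3a 7.54, 10.5, 4.67 and 10.7.

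**Figure D5:**
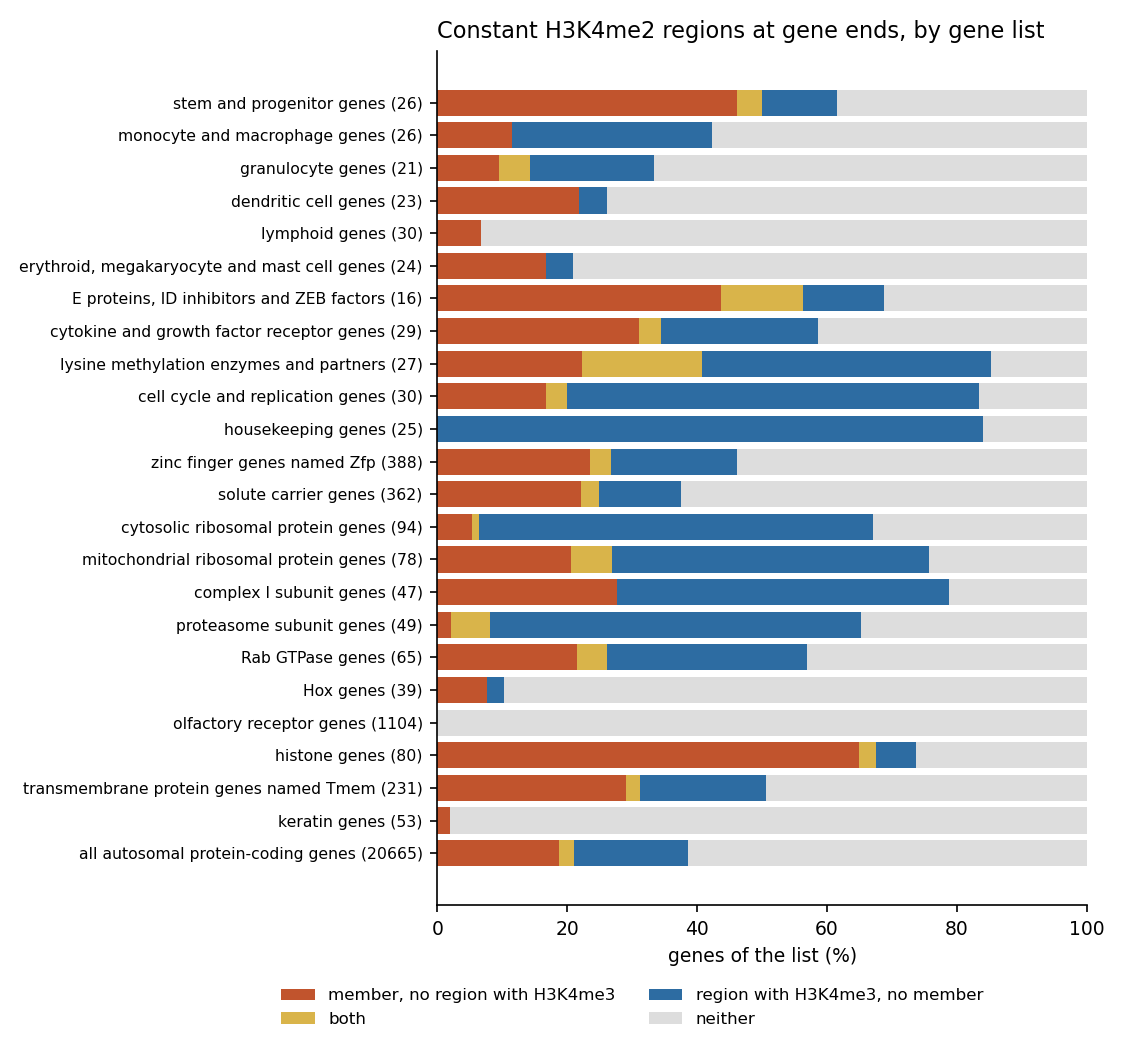
Share of the genes of each list shown (horizontal axis, percent; number of genes in brackets) with a member and no H3K4me3-bearing region, with both, with an H3K4me3-bearing region alone, or with neither, at either end. Histone genes are led by members and housekeeping, proteasome and ribosomal protein genes by regions with H3K4me3.

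The genotypes were compared by place. Because a member needed a peak in all 4 libraries, regions lost in DE are outside the comparison. The median place of the members was 56.9 ± 0.70 in WT and 57.0 ± 0.51 in DE (mean ± SD, n = 2 each), a difference of 0.11 that lies within the spread between replicates. A two-sided exact permutation test over the libraries gave p = 1, and its smallest possible value is 0.33. Region by region, limma on normal scores of place called 0 members stronger and 0 weaker in DE at an adjusted p under 0.05, as it called 0% of all 11891 constant regions. The smallest adjusted p was 0.366. When limma let the spread follow mean place, 1 member was called weaker in DE, at Gm13286 of the interferon zeta array (adjusted p = 0.0414), among 9 of all constant regions called weaker and 0 called stronger. Without DE replicate 2 there were 3, at Btbd3, Mrps17 and Smg1, among 10 regions called weaker and 0 called stronger. That fit leaves a lone DE library, which is assumed to vary like the WT pair. These genes are named because the test called them. At an unadjusted p under 0.05 the test had 223 members stronger and 232 weaker in DE, and over all constant regions 506 (4.26%) and 534 (4.49%). Places of the 2 genotypes did not overlap for 934 members stronger in DE (21.5%, against 21% of all constant regions) and 893 weaker (20.6%, against 19.3%). The shares for members were thus close to those of constant regions in general.

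Among members whose genotypes did not overlap, the largest shifts are given as values, as none passed the test. Stronger in DE were members at Traf3ip2, Commd10, Dip2c, Manbal and Mbp. Traf3ip2, an adaptor of the IL-17 receptor, had places of 99.5 and 82.6 in the WT libraries against 36.6 and 17.9 in the DE libraries. The difference was 2.39 ± 0.57 normal scores (SE, n = 2 each, limma adjusted p = 0.366). Weaker in DE were those at Klhl7, Crot, Tfeb, Mospd3 and Ica1. Tfeb, a regulator of lysosomal genes, had 29.3 and 34.5 in WT and 81.9 and 99.0 in DE, and Mospd3 had 1.17 and 5.74 in WT and 14.9 and 91.3 in DE. Each of these rests on 2 libraries a genotype and the DE replicates often differed widely, as at Mospd3.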

How the data were processed

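The files hold peak lists of 5 of the 7 libraries, 1 list per library, made by the authors; the other 2 (IgG and H3K4me3 of another progenitor) were not analysed here. Per the submitters' processing notes, reads were handled with Trimmomatic, Bowtie2, SAMtools, Picard and MACS2 version 2.2.9.1 on mm10; settings, controls and the handling of duplicates are not recorded in the labels or headers. Reads were paired-end over 150 bp, per the labels. Each deposited entry gives a score, a fold over local background (a linear ratio), and the −log10 p and −log10 q of the summit. The deposited lists also give the offset of the summit within its interval, another value, which was not used beyond counting summits. The deposited lists carry no read totals, so depth is unknown and precision rests on the number of libraries. The lowest −log10 q was 1.00 to 1.02, so weak peaks are included.

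Intervals were merged where they touch, a call needed at least 1 shared base, and coordinates count from 1. Genes and promoters came from RefSeq tables of GRCm38.p6; 3500 of the 4341 genes with a member had a promoter entry. Place was tested with exact permutation tests (scipy 1.17.1) and, as normal scores over all 11891 constant regions, with limma 3.58.1 (R 4.3.3), Benjamini-Hochberg adjusted at 0.05, after a test on simulated data. Shares have 95% Wilson intervals. Members, lists and tests were chosen with earlier results of these data known. The text names the 10 strongest and 5 widest members, members and regions at the 1 kb limit (3 each), the 3 nearest an H3K4me3 peak, at most 4 genes of each of 13 lists in written order (3 strongest of each of 12 symbol families) and the 5 largest non-overlapping shifts in each direction. Other genes were named after their values were seen. Promoter stretches that reach into a protein-coding gene were passed over. Alternatives were stricter q, equal list lengths, other merging, distances and H3K4me3 limits, place by fold, a replicate block, a spread that follows mean place and leaving out each library; leaving out the interferon zeta array was added after seeing the data. Parts of the results for 2 gene lists are not reported here.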

Additional observations from a re-analysis of the deposited data

Results flagged for a closer look

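Chromosome X lies outside the rule, which takes autosomes. By the same steps it held 270 constant H3K4me2 regions, and 88 of them were gene-end regions without an H3K4me3 peak, against 60 with one. This was flagged because the values come from data that no comparison above uses. By place among the constant regions of that chromosome the strongest was at Efnb1, a ligand of EPH receptors (mean place 4.07).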

How the results depend on the processing

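Of the results that answer a comparison, 82 values under alternatives counted as the same, 14 moved and 6 changed sign. A count was the same within a fixed ratio to the main count. That limit was wide: 3136 members (lists of equal length) to 5816 (stricter H3K4me3 limit) passed as the same as 4336. A share or CpG ratio was the same when inside its main 95% interval. A difference in place was the same when it kept its sign. The number of members was 1937 with H3K4me2 peaks at a −log10 q of at least 5, where the share without an H3K4me3 call was 43.0%. That share was 48.9% with lists of equal length, 52.0% with intervals within 500 bp merged, 49.5% with no H3K4me3 peak within 1 kb and 72.7% with H3K4me3 peaks at a −log10 q of at least 5, and 54.6 to 57.4% without each library in turn. Under the stricter H3K4me3 limit 94.9% of members lay at a gene start and the median CpG ratio was 0.812, and under the stricter H3K4me2 limit it was 0.792. The difference in place from regions with H3K4me3 kept its direction in all alternatives run (15.0 to 24.6 points). The genotype difference in median place, 0.11 points, changed sign with intervals within 500 bp merged (-0.051), ends within 2 kb (-0.59), place by fold (-0.85) and without the interferon zeta array (-0.20), and ran from -0.79 to 0.10 without each library. Members called weaker in DE numbered 1 with the spread following mean place and 0 to 3 without each library. With a replicate block limma called 0 stronger and 0 weaker. Deviations of same-numbered libraries did not go together (correlation -0.0026 over constant regions). That value cannot show whether such libraries were prepared as pairs, and no label states it. Histone genes with a member numbered 35 under the stricter H3K4me2 limit. Causes were not tested. A peak list cannot show signal below its threshold, the H3K4me3 list rests on 1 library of another batch, and copies with shared sequence may share reads.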

Other observations

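MicroRNA hairpins add genes that code for no protein to the view of the members. Of 919 autosomal hairpins in the RefSeq table, 16 overlapped 15 members, and 13 overlapped constant gene-end regions with H3K4me3. The mature sequences below are from hairpins in the 3 strongest of these members by mean place and at Ring1, where hairpins on opposite strands share a region. Capitals mark the seed, bases 2 to 8. Mir5133 lies in the member at Glce (chr9:62122518-62122594, minus) and Mir6546 in the member at Fcgr3 (chr1:171064591-171064652, minus). Mir574 lies in the member at Fam114a1 (chr5:64970318-64970395, plus). At Ring1, Mir219a-1 (chr17:34024983-34025092, minus) faces Mir219c (chr17:34025012-34025071, plus).
mmu-miR-5133: gCUGGAGCugcggcagcgcag
mmu-miR-6546-3p: gAGCGAAGcccaagcgccaga
mmu-miR-574-3p: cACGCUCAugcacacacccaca
mmu-miR-219a-5p: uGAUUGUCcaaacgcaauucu
mmu-miR-219c-5p: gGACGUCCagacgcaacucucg
The member over Mir5133 had places of 4.35 and 3.05 in WT and 2.80 and 6.06 in DE, that over Mir6546 had 3.14, 7.75, 2.13 and 4.53, and that over Mir574 had 11.1, 7.73, 10.2 and 18.3. The member over the Mir219a-1 and Mir219c pair had 16.0, 37.2, 26.4 and 26.7. The genotypes overlap at each of these members. The seeds shown differ from one another. Levels of these microRNAs were not measured.

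Some genes carried several members. A count of 1 was usual, and 6 genes had 4 (Cdk2ap2, Cuedc2, Gadd45g, Icam1, Igf1r and Pacs2). Those with 3 included Gadd45b, Irs2, Smad6, Cpt1a, Tle3 and Meis1. Gadd45b and Gadd45g encode stress-response proteins, Icam1 an adhesion molecule of inflammation, Irs2 and Igf1r parts of insulin and IGF1 signalling, and Smad6 an inhibitor of BMP signalling. The members of a gene differed in strength. At Irs2 the mean places were 1.26, 77.0 and 79.8, and at Gadd45g 4.14, 11.3, 71.6 and 86.9. These genes were named after their counts were seen. By chromosome, the share of constant gene-end regions without an H3K4me3 peak ran from 48.7% on chromosome 17 to 61.4% on chromosome 13, which holds the large histone cluster.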
